A study of Mus musculus with 4 samples.

Results

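The cytochrome P450 genes (Cyp genes) were taken as all protein-coding genes on mouse chromosomes 1 to 19 whose symbol is Cyp followed by a family number, a subfamily letter and a gene number, with Cyp51 added. This gave 99 genes of the 20807 protein-coding genes on those chromosomes, and each of the 99 had a replication-timing value at its start. Another 31 annotated genes with such symbols, pseudogenes and antisense genes among them, were left out because they are not protein coding. The 99 genes lie on 14 chromosomes and their starts fall in 86 bins of 50 kb. A run of Cyp genes whose neighboring starts are within 500 kb was called a multi-gene locus. By this rule 76 genes were in 10 multi-gene loci and 23 were single genes.

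Replication timing (RT) was measured by population Repli-seq in F121-9 cells, a diploid mouse embryonic stem cell (mESC) line of the hybrid strain cas/129, grown in N2B27 medium with 2i and LIF. Replicating DNA was labeled with the nucleotide analog BrdU, cells were sorted into an early and a late S-phase fraction, and the labeled DNA of each fraction was sequenced in 2 libraries, 4 libraries in all. RT is the log2 of early over late reads in a bin, so a value above 0 means that the bin was read more in the early fraction. There was 1 RT value per bin for the 4 libraries together, with no value per replicate and with unknown depth, so no RT value below has a replicate error and no p-value is given. The values describe 1 cell line in 1 state with no control condition, and expression was not measured.

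Cytochrome P450 enzymes are heme-containing monooxygenases. Families such as Cyp11, Cyp17, Cyp19 and Cyp21 make steroid hormones, while Cyp7 enzymes, Cyp8b1 and Cyp27a1 make bile acids. Cyp26 enzymes clear retinoic acid. Many enzymes of the Cyp2, Cyp3 and Cyp4 families act on drugs, fatty acids and other small molecules, mainly in liver, kidney and gut. The last group has grown by tandem duplication, so its genes often stand side by side in clusters. Embryonic stem cells are not a main site of these activities.

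The promoters of 5 Cyp genes show the sequence range of the family, as RefSeq gives them for GRCm38.p6 (mm10), from 250 bases before the start to 50 bases into the gene. Cyp27b1 (chr10:127047996-127048295, plus strand) had the highest RT of all members and Cyp2j5 (chr4:96664070-96664369, minus strand) the lowest. Cyp2t4 (chr7:27153464-27153763, plus strand) and Cyp2b9 (chr7:26173159-26173458, plus strand) are the highest and lowest genes of a locus on chromosome 7 whose range of RT, with that of the Cyp3a cluster, was the widest. Cyp46a1 (chr12:108334066-108334365, plus strand) was added after the counts were seen, as the promoter with the most CpG dinucleotides. Capitals mark CpG.
Cyp27b1: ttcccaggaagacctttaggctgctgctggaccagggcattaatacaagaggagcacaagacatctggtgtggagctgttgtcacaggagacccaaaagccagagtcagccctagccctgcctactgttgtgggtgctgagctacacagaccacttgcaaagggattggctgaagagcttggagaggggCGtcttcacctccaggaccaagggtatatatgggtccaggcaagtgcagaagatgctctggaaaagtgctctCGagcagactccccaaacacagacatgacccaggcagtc
Cyp2j5: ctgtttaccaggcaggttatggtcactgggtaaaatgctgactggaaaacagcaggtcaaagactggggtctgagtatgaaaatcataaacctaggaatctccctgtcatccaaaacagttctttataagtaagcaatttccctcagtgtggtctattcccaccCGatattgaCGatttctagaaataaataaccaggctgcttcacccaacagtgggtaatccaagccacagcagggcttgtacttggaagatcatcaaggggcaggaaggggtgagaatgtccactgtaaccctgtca
Cyp2t4: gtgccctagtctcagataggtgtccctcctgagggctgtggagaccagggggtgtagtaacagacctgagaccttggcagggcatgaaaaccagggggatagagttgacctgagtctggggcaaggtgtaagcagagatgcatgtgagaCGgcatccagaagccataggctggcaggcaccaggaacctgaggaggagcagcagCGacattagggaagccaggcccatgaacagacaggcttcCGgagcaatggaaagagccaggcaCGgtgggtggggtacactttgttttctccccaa
Cyp2b9: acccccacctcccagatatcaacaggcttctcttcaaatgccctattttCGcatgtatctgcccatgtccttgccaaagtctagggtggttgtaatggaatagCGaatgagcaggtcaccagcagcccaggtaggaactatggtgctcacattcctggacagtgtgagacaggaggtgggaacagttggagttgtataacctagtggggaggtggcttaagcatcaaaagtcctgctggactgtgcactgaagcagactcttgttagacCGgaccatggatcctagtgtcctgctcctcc
Cyp46a1: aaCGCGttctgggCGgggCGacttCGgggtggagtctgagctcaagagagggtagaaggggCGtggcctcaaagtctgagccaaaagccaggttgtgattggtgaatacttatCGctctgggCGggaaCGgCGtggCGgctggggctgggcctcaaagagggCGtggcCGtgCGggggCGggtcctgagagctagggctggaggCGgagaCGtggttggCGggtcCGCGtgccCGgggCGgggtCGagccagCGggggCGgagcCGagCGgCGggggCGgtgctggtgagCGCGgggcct

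These windows hold 2 CpG in Cyp27b1, 2 in Cyp2j5, 4 in Cyp2t4, 3 in Cyp2b9 and 31 in Cyp46a1. The earliest and the latest replicating Cyp gene thus had the same number of CpG, at RT 3.81 and -3.65, which describes this pair only.

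RT of the Cyp genes ran from -3.65 to 3.81, and fewer of them were above 0 than of protein-coding genes in general. RT was above 0 at 55 of the 99 starts, or 55.6% (exact 95% binomial interval 45.2 to 65.5, which covers counting only, since neighboring genes share bins), while 74.1% of all protein-coding genes and 42.1% of all bins were above 0. The median RT was 0.35 for the Cyp genes and 2.35 for all protein-coding genes. The share of Cyp genes rose to 75.0% (45 of 60) with start bins of over 10% repeated 50-base windows left out. It was 69.7% with each locus counted once. The 74.1% of all genes was not recounted in these ways, so these shares have no like background. The highest 3 members were Cyp27b1 at 3.81, Cyp2w1 at 3.76 and Cyp21a1 at 3.64. The lowest were Cyp2j5 at -3.65, Cyp2j8 at -3.52, and Cyp2j6 and Cyp2j9, which share a bin at -3.49. RT at Cyp27b1 was higher than at 98.0% of all genes, and at Cyp2j5 it was higher than at only 2.75% of them.

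Cyp genes were frequent in the middle of the RT scale and sparse at its early end. Between RT -1 and 1 there were 32 of 99 Cyp genes, against 15.4% of all protein-coding genes, and between -2 and 2 there were 60, against 32.2%. Above RT 2 there were 28 Cyp genes, against 55.1% of all genes. Below RT -2 there were 11, close to the 12.7% of all genes, and each of these 11 was in a multi-gene locus. Within 0.3 of RT 0 were 10 members. These were the single genes Cyp19a1, Cyp1b1 and Cyp8b1, the Cyp2c genes Cyp2c65, Cyp2c69 and Cyp2c70, and Cyp2b23, Cyp2b19, Cyp2g1 and Cyp2a5 of the cluster on chromosome 7.

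**Figure D1:**
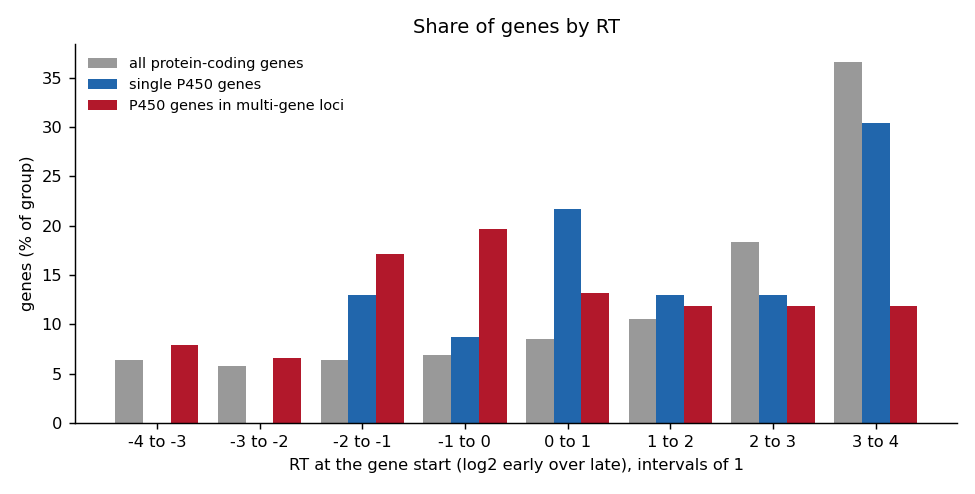
Share of genes in intervals of RT (log2 early over late) from -4 to 4, for the Cyp genes in multi-gene loci, the single Cyp genes and all protein-coding genes. All protein-coding genes pile up above RT 2 (55.1%), while 18 of 76 genes in multi-gene loci and 10 of 23 single genes lie there.

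Single Cyp genes had higher RT than the genes in multi-gene loci, but this order turned with start bins of over 10% repeated 50-base windows left out. Of the single genes, 18 of 23 (78.3%, exact interval 56.3 to 92.5) were above 0, with a median of 1.53. This share is near the 74.1% of all protein-coding genes, and the median is below their 2.35. In multi-gene loci 37 of 76 (48.7%, exact interval 37.0 to 60.4) were above 0, with a median of -0.13. The medians differed by 1.66. Both intervals cover counting only. The 76 genes lie in 63 bins of 10 loci and are not independent, so their interval is no test against the 74.1%. Duplicated genes bring repeated sequence with them, which bears on which reads can be placed. The share of 50-base windows of a start bin that occur again in the locus or its 1 Mb flanks was counted. It had a median of 9.57% for genes in multi-gene loci and 1.30% for single genes, and it was over 10% for 36 of the 76. It was counted only in Cyp loci and their flanks, so no share over all genes or bins stands beside it, here or below. Longer loci also had a longer stretch to search, so the 2 medians are not fully alike. With start bins over 10% left out, the order turned: the median was 1.99 for 40 genes in multi-gene loci and 1.01 for 20 single genes, a difference of -0.98. The genes in such bins were mostly those of the late clusters, 34 of 53, against 2 of 23 in the early clusters. The part of repeated sequence in the RT values was not tested.

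**Figure D2:**
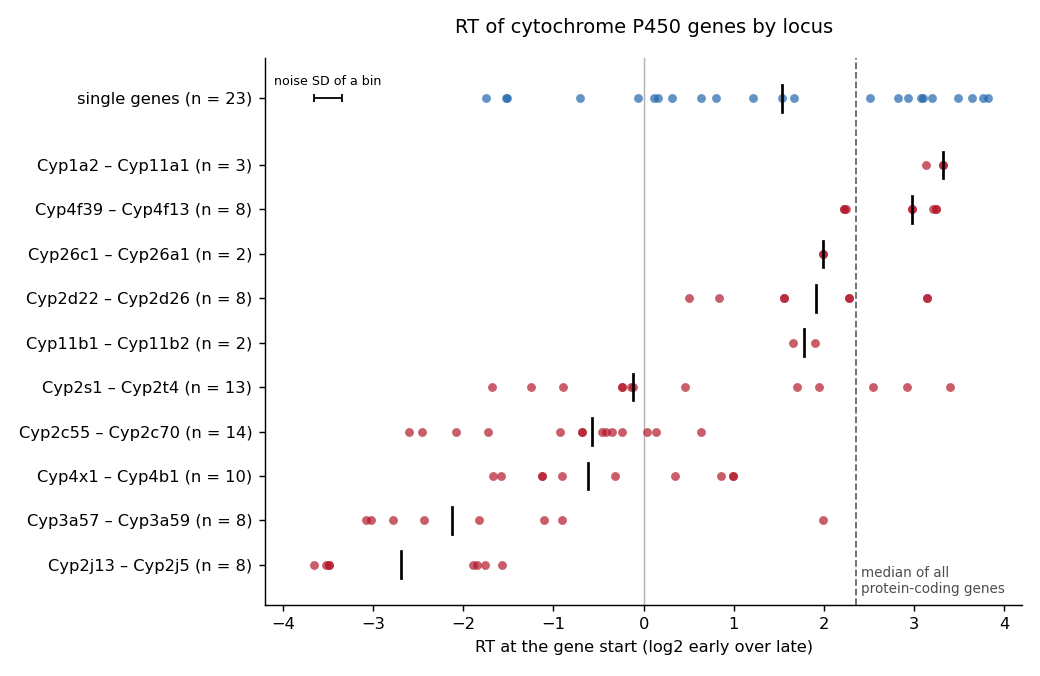
RT (log2 early over late) at the start of each Cyp gene, by multi-gene locus and for the 23 single genes. Each point is a gene (overlapping points share a bin), black bars are medians, the dashed line is the median of all protein-coding genes (2.35), and the bracket at top left reaches the noise SD of a bin (0.158) to each side. The 10 loci run from a median of -2.69 (Cyp2j) to 3.32 (Cyp1a2 to Cyp11a1).

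The late genes were gathered in a few places. The 10 loci split evenly, with 5 medians above 0 and 5 below, and early and late clusters here mean these. All 23 genes of the early loci had RT above 0. Of the 53 genes in the late loci, 39 were below 0 and 14 above. To judge steps inside a locus, the noise of a bin was taken from deviations between neighboring bins in flat stretches of the profile. It had an SD of 0.158 over 6129 bins, and RT values of a pair of bins were called apart where they differed by more than 0.44. Of the 53 steps between neighboring bins with Cyp genes in the same locus, 33 were apart. They lay in the loci with at least 8 members, each of which had at least 1. The plain SD of such deviations inside Cyp2s1 to Cyp2t4 was higher, at 0.216. In the other loci with at least 8 members it was below 0.158. The smallest steps called apart in Cyp2s1 to Cyp2t4, such as 0.48 from Cyp2f2 to Cyp2t4, are thus less sure. The starts of a step were up to 379 kb from each other, and steps between other genes were not counted for comparison.

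The Cyp2j cluster on chromosome 4 was the latest. Its enzymes epoxidize arachidonic acid and other fatty acids. All 8 genes were below 0, with a median of -2.69 over 587 kb of starts. Cyp2j13, Cyp2j12, Cyp2j7 and Cyp2j11, which stand at the left end, had RT of -1.85, -1.76, -1.58 and -1.89. Cyp2j8, Cyp2j6, Cyp2j9 and Cyp2j5, on the right, had -3.52, -3.49, -3.49 and -3.65. Of the 6 steps between member bins, 1 was apart, that from Cyp2j11 to Cyp2j8, which fell by 1.63. The bins between Cyp2j11 and Cyp2j8 hold no Cyp start, and RT fell gradually across them, through -2.27, -2.93 and -3.41. Of its 13 bins, 10 had at most 10% repeated windows, and all 10 were below 0, from -3.80 to -1.67. No flank within 1 Mb was early, with highest values of -0.83 on the left and -2.29 on the right.

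The Cyp3a cluster on chromosome 5, whose enzymes metabolize many drugs and steroids, formed the deepest drop between early flanks of the 10 loci. Cyp3a57, at the left edge, had an RT of 1.99, and the next genes to the right had -0.91 (Cyp3a16), -2.44 (Cyp3a41b) and -3.08 (Cyp3a41a). From there RT rose through -3.03 (Cyp3a44), -2.78 (Cyp3a11) and -1.82 (Cyp3a25) to -1.11 (Cyp3a59) at the right edge. The profile reached 3.33 within 1 Mb on the left and 3.01 on the right, which is 6.41 and 6.10 above the lowest bin. The drop lay in repeated sequence: 13 of the 16 bins had over 10% repeated windows and all 13 were below 0, while the other 3 bins ran from 0.34 to 1.99. The part of repeated sequence in this drop was not tested. Cyp3a13, the member of the subfamily that stands alone on the same chromosome, had an RT of 1.67.

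The cluster of 13 genes on chromosome 7 (Cyp2s1 to Cyp2t4) had a range of 5.08, which cannot be told apart from the 5.07 of the Cyp3a cluster, and holds genes of the Cyp2a, Cyp2b, Cyp2f, Cyp2g, Cyp2s and Cyp2t subfamilies. The outer genes were early, with 2.55 at Cyp2s1 and 1.95 at Cyp2b10 on the left and 1.70 at Cyp2a12, 2.92 at Cyp2f2 and 3.40 at Cyp2t4 on the right. Between them Cyp2b13 had -0.89, Cyp2b9 -1.68 and Cyp2a4 -1.25, Cyp2b23 and Cyp2b19 -0.14 and -0.12, Cyp2g1 and Cyp2a5 -0.24 in a shared bin, and Cyp2a22 0.46. Cyp2b10, the phenobarbital-inducible Cyp2b gene, was thus early, and the other 4 Cyp2b genes were below 0. The 5 genes of other families between its first and last start, vomeronasal receptor and NLR-family genes, were also below 0, from -1.36 at Nlrp9a to -0.69 at Vmn1r185. Of the 28 bins, 13 had at most 10% repeated windows, and 8 of these 13 were below 0, down to -1.37.

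The Cyp2c cluster on chromosome 19, the largest with 14 genes over 1180 kb, encodes enzymes for drugs and arachidonic acid. RT was 0.63 at Cyp2c55 and 0.03 at Cyp2c65 on the left. It was -0.46 at Cyp2c66, -2.08 at Cyp2c29, -2.60 at Cyp2c38 and -2.46 at Cyp2c39, and then -1.73 at Cyp2c67 and -0.92 at Cyp2c68. The 6 remaining genes lay between -0.68 (Cyp2c54 and Cyp2c50) and 0.14 (Cyp2c70). All 12 inner genes were below both outer genes. Of these, Cyp2c65 and Cyp2c69 differed from the outer gene Cyp2c70 by less than the bin noise limit. Within 1 Mb RT reached 3.55 on the left and 1.56 on the right. Of 24 bins, 7 had at most 10% repeated windows, and 4 of these 7 were below 0, down to -2.55. Cyp2c23, an epoxygenase gene that stands apart from the cluster on the same chromosome, had an RT of 3.07, above every gene of the cluster.

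The Cyp4 cluster on chromosome 4 holds Cyp4x1, 8 Cyp4a genes and Cyp4b1. Cyp4a enzymes hydroxylate the end of fatty acid chains and include Cyp4a10 and Cyp4a14, classic targets of the nuclear receptor PPARalpha. Cyp4x1 had 0.86, Cyp4a29 -0.91, Cyp4a12a -1.59 and Cyp4a12b -1.68. RT then rose through -1.12 (Cyp4a30b and Cyp4a14), -0.32 (Cyp4a10) and 0.35 (Cyp4a31) to 0.99 (Cyp4a32 and Cyp4b1). Of the 7 steps 6 were apart, so RT changed nearly from bin to bin across the cluster. Within 1 Mb it reached 1.83 on the left and 3.57 on the right. Repeated windows were over 10% in 10 of its 11 bins, 8 of them below 0, and the 1 other bin was that of Cyp4x1.

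**Figure D3:**
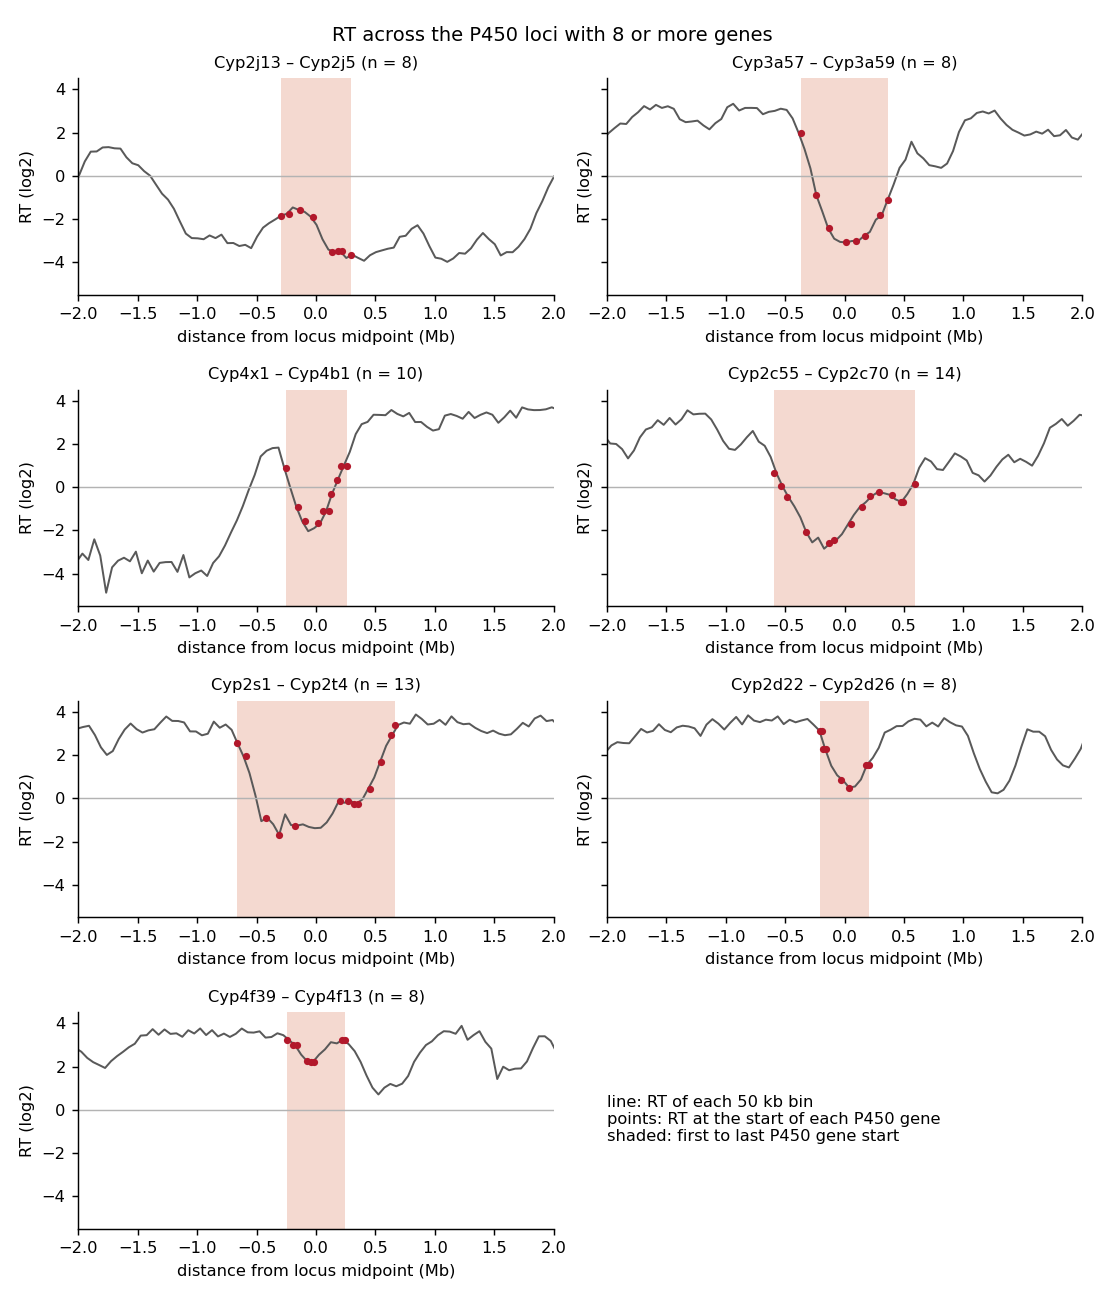
RT (log2 early over late) in 50 kb bins along each multi-gene locus with at least 8 members and its flanks, against distance from the locus midpoint in Mb. Lines are the bins, points mark Cyp gene starts, and shading runs from the first to the last Cyp start. Cyp3a, Cyp2s1 to Cyp2t4, Cyp2c and Cyp4 dip between higher flanks, Cyp2j lies low with low flanks, and the bins of Cyp2d and Cyp4f stay above 0.

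The other large clusters were early throughout. In the Cyp2d cluster on chromosome 15, related to the human debrisoquine hydroxylase gene, Cyp2d22 and Cyp2d11 had 3.14, Cyp2d10 and Cyp2d9 2.27, Cyp2d12 0.84, Cyp2d34 0.50, and Cyp2d40 and Cyp2d26 1.55. This cluster also dipped in its middle, but its lowest bin stayed above 0. The 8 genes of the Cyp4f cluster on chromosome 17, whose enzymes inactivate leukotriene B and hydroxylate fatty acids, lay between 2.22 (Cyp4f40 and Cyp4f15) and 3.24 (Cyp4f14 and Cyp4f13). Cyp4f18, the Cyp4f gene that stands alone on chromosome 8, had 2.93, inside that range. Of the same family, the highest Cyp4a value was 0.99 and the lowest Cyp4f value 2.22. This sets the 1 locus of the Cyp4a genes against the Cyp4f cluster and Cyp4f18, so it compares few places and not separate genes. In the Cyp4a locus 10 of 11 bins had over 10% repeated windows. How often other loci overlap was not counted.

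For each gene the highest RT within 1 Mb on either side was set against its own. A rise of at least 2 on both sides, a limit chosen after the profiles were seen, was found at 32 of 99 Cyp genes, against 11.0% of all protein-coding genes. Of these 32, 7 were in the Cyp3a cluster, 7 in Cyp2s1 to Cyp2t4, 6 in Cyp4, 5 in Cyp2c and 4 in Cyp2d. The 3 single genes among them were Cyp26b1, Cyp19a1 and Cyp1b1. Among genes with RT below 0 the rise was found at 25 of 44 Cyp genes, against 33.0% of all such genes. Of these 25, all but Cyp2b19 had a start bin of over 10% repeated windows. So had Cyp2d12, while Cyp2d34, Cyp2d40, Cyp2d26 and the 3 single genes did not. The shares with a rise were not recounted without such bins, for Cyp genes or for all genes. The part of repeated sequence in the rise was not tested.

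The 3 small loci were early. Cyp1a1 and Cyp1a2, the dioxin-inducible genes that run head to head from 1 bin on chromosome 9, had 3.32, and Cyp11a1, the cholesterol side-chain cleavage enzyme in the same locus, had 3.13. Cyp11b1 and Cyp11b2, which make corticosterone and aldosterone, had 1.90 and 1.65, a difference below the bin noise limit. Cyp26a1 and Cyp26c1, which degrade retinoic acid, share a bin at 1.99.

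By role, genes of steroid hormone synthesis all had RT above 0, Cyp19a1 by less than the noise SD of a bin (0.158). Cyp21a1 had 3.64, Cyp17a1 3.49, Cyp11a1 3.13, Cyp11b1 1.90, Cyp11b2 1.65 and Cyp19a1 (aromatase) 0.15, so 6 of 6 were above 0 (exact interval 54.1 to 100%, which includes the 74.1% of all genes) with a median of 2.52, near the 2.35 of all genes. Of the retinoic acid clearance genes 3 of 3 were above 0, too few to set against the share of all genes, and the lowest was Cyp26b1 at 0.80.

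Genes of cholesterol and bile acid metabolism ranged widely, with 4 of 7 above 0 and a median of 0.32. The exact interval of the share, 18.4 to 90.1%, includes the 74.1% of all genes. Cyp27a1, a mitochondrial sterol hydroxylase, had 3.19 and Cyp46a1, which hydroxylates cholesterol in the brain, had 2.83. Cyp51, the lanosterol demethylase of cholesterol synthesis, had 0.63, Cyp39a1, an oxysterol hydroxylase, 0.32 and Cyp8b1, the sterol hydroxylase that sets the bile acid mix, -0.06. Cyp7a1, the rate-limiting enzyme of bile acid synthesis, and Cyp7b1, its counterpart in the alternative route, were both late, at -1.53 and -1.52. These 2 lie on different chromosomes and differed by less than the bin noise. The vitamin D genes also differed, with 3.81 at Cyp27b1, which makes the active hormone, 1.53 at Cyp24a1, which inactivates it, and -0.70 at Cyp2r1, which makes the precursor in liver.

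The 73 genes of the xenobiotic and fatty acid subfamilies had 34 above 0 (46.6%), against 74.1% of all protein-coding genes. Their median was -0.24, against 2.35 for all genes. This group was not recounted without bins of over 10% repeated windows. Among the single genes of this group Cyp2e1, the ethanol-inducible enzyme, had 3.10 and Cyp1b1 0.11. Of the 7 remaining genes 6 were above 0 (exact interval 42.1 to 99.6%, which includes the 74.1% of all genes). They included Cyp2w1 at 3.76, Cyp20a1 at 2.51, Cyp2u1 at 1.21 and the single one below 0, Cyp4v3, a fatty acid hydroxylase of the eye, at -1.75.

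In the order of the 23 single genes most neighbors could not be told apart. The gaps above the noise limit were from Cyp20a1 at 2.51 to Cyp3a13 at 1.67, from Cyp8b1 at -0.06 to Cyp2r1 at -0.70, and from Cyp2r1 to Cyp7b1 at -1.52.

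**Figure D4:**
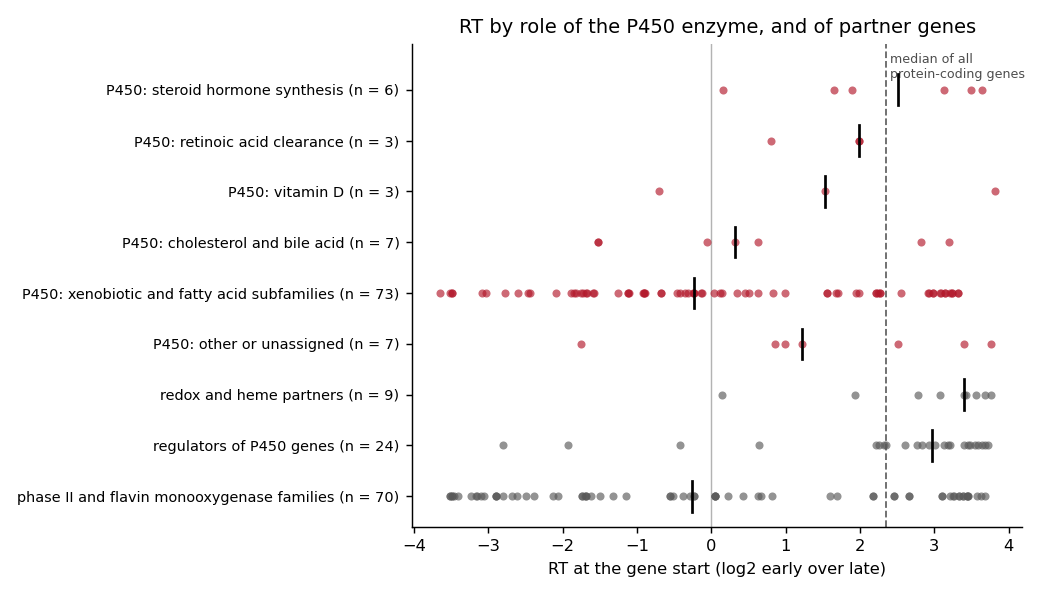
RT (log2 early over late) at the gene start by role of the P450 enzyme (red) and for lists of partner genes (gray). Black bars are medians and the dashed line is the median of all protein-coding genes. Medians run from -0.26 in the phase II and flavin monooxygenase list to 3.41 in the redox and heme partners.

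Genes that work with P450 enzymes, like most protein-coding genes, were mostly above 0. All 9 redox and heme partners were above 0, with a median of 3.41 and an exact interval of the share from 66.4 to 100%. Por, the reductase that supplies electrons to P450 enzymes of the endoplasmic reticulum, had 3.41, and the mitochondrial pair Fdxr (ferredoxin reductase) and Fdx1 (ferredoxin) had 3.76 and 0.14, the highest and the lowest of the list. Cyb5a, the cytochrome b5 gene, had 1.93. Of 24 regulator genes 21 were above 0 (exact interval 67.6 to 97.3%), with a median of 2.97. Both intervals include the 74.1% of all protein-coding genes. They ran from -2.81 at the retinoic acid receptor gene Rarb to 3.72 at Rara. The other 2 below 0 were Ahr, the dioxin receptor gene, at -1.93 and Nr1h4, the bile acid receptor gene, at -0.42. The Ahr targets Cyp1a1 and Cyp1a2, which share a bin at 3.32, were thus early where Ahr itself was late. Cyp1b1, of the same family, had 0.11, above 0 by less than the noise SD of a bin.

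Phase II enzymes conjugate the products of P450 reactions. Together with the flavin monooxygenase genes, which also oxidize drugs, they had 33 of 70 genes above 0 (47.1%), against 74.1% of all protein-coding genes. The median of this list was -0.26, near the median of the xenobiotic P450 genes. The list ran from -3.51 at Nat1 to 3.68 at Sult2b1. All glutathione transferase genes of the classes listed (4 Gsta, 7 Gstm, 3 Gstp and 4 Gstt) were above 0. None of 7 Ugt2b genes and none of 3 Nat genes was, and 1 of 7 Fmo genes and 1 of 9 Sult2 genes was. Of the P450 genes with other symbols, Ptgis (prostacyclin synthase) had 3.63 and Tbxas1 (thromboxane synthase) 1.66.

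Base composition moved with RT in these genes. The start bins of genes in multi-gene loci had a median GC content of 42.1%, against 44.6% for single genes and 44.6% for all protein-coding genes. Interspersed and other masked repeats made up 41.5%, 29.1% and 29.4% of the bins, and the median number of protein-coding starts in the bin was 1, 2 and 2. Across genes, Pearson's r of RT with GC content was 0.74 for the 99 Cyp genes and 0.70 for all 20732 protein-coding genes with an RT value. Genes are not independent points, since neighbors share bins and base composition, so these are descriptions without a p-value.

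Set against genes in bins of like GC content (intervals of 1%), 31 of 99 Cyp genes were below the lower quartile of RT, against 25.0% of all genes, and 11 were above the upper quartile, against 24.9%. In the Cyp3a locus 7 of 8 genes were below the lower quartile, in Cyp2s1 to Cyp2t4 6 of 13, in Cyp2j 4 of 8, in Cyp4x1 to Cyp4b1 1 of 10 and in Cyp2c 1 of 14. The Cyp2c cluster, although late, had 5 genes above the upper quartile for its GC content, which was 39.0% over the locus. Single genes had 9 of 23 below the lower quartile, Cyp26b1, Cyp8b1 and Cyp46a1 among them, and 5 above the upper one.

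**Figure D5:**
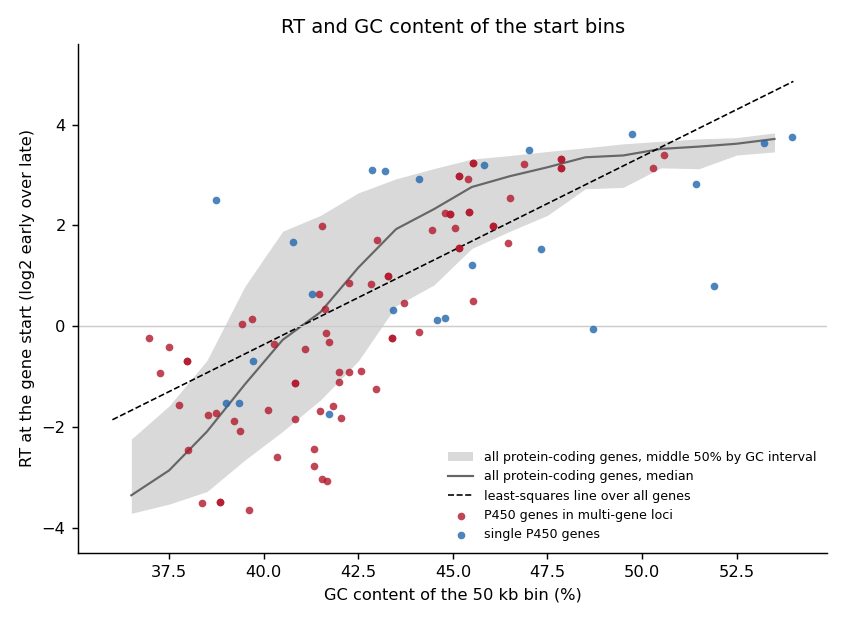
RT (log2 early over late) against GC content (%) of the start bin for Cyp genes in multi-gene loci (red) and single Cyp genes (blue). The line is the median and the band the quartiles of all protein-coding genes in intervals of 1% GC, and the dashed line is a least-squares line over all genes. Of the Cyp genes 31 lie below the band and 11 above it.

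RefSeq promoters were matched for 76 of the 99 genes, and most were poor in CpG. The median was 3 CpG in the 300-base window for the Cyp genes, 2 in multi-gene loci and 9 in single genes, against 15 for the 15687 protein-coding genes with an entry. At least 10 CpG were found in 10 of 76 Cyp promoters (13.2%), against 59.9% of all promoters. These were Cyp46a1 (31), Cyp51 (28), Cyp26a1 (26), Cyp2r1 (22), Cyp20a1 (20), Cyp4v3 (17), Cyp2s1 (17), Cyp1b1 (16), Cyp4f39 (11) and Cyp27a1 (10), which covers RT from -1.75 to 3.21. They made up 8 of the 41 Cyp promoters with RT above 0 (19.5%) and 2 of the 35 with RT below 0 (5.71%). The letters TATAAA, searched on both strands, occurred in 31 of 76 windows (40.8%), against 12.9% of all promoters. GCGTG, the core of the dioxin response element, occurred on either strand in 16 of 76 (21.1%), against 40.0%. Inside multi-gene loci the median CpG number was 3 for the 29 promoters with RT above 0 and 2 for the 32 with RT below 0, and TATAAA occurred in 14 of 29 and 14 of 32. At least 10 CpG were found in 3 of these 29 and 0 of these 32. A letter match is a description of these windows and not a site.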

How the data were processed

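Per the labels and the study's methods, reads of 4 Repli-seq libraries of F121-9 mESCs (2 early and 2 late S-phase) were mapped to mm10, and tools named in the submitters' notes are Bowtie2, SAMtools and bedtools. The authors converted each fraction to RPM (reads scaled to the library total) and deposited 1 log2 early over late value per 50 kb bin, with no smoothing stated. How replicates were combined, and whether the mapping-quality filter described for the study applied here, is not given in the sources used here.

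From these values the RT of the bin with each GENCODE vM21 protein-coding start was read over 47928 bins of chromosomes 1 to 19. The assembly's chromosome lengths matched the files. GC content, masked bases and repeated 50-base windows were counted in GRCm38. The noise SD came from bins in runs of at least 10 bins with a slope at or under 2.5 log2 per Mb over 5 bins, and the limit for apart is the two-sided 95% normal limit of a difference. The script was tested on simulated data. Intervals are exact binomial (Clopper-Pearson) and cover counting only, since genes that share a bin or locus are not independent. Python 3.11.15, numpy 2.4.6, pandas 2.3.3 and scipy 1.17.1 were used.

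Named were all single genes, the highest and lowest gene of each locus and list, the 3 highest and lowest members, members within 0.3 of RT 0, the genes with known roles in the gene lists, and Por, Fdx1, Fdxr and Cyb5a. The partner gene Pgrmc1 has no entry on these chromosomes. Other genes were named after their values were seen. The members, lists and rules were chosen with earlier results of these data known. Alternatives covered the value taken per gene, the counting of shared bins and loci, the linkage, the cut between early and late, the start annotation and repeated sequence, the last pair added after seeing the data.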

Additional observations from a re-analysis of the deposited data

How the results depend on the processing

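No paired analysis was possible because each bin has 1 RT value that combines the replicates and both fractions, and leaving out a replicate could not be run for the same reason. Of 51 alternative values 12 moved and 4 changed sign. Leaving out bins beside a bin with no value removed no member and linkage within 1 Mb left every locus as it was, so these could not move a result. The median RT of genes in multi-gene loci was above 0 with symbols ending in a letter left out (0.14), with each locus counted once (0.83) and with bins over 10% repeated windows left out (1.99). The last alternative, chosen after seeing the data, also turned the difference of single genes minus genes in multi-gene loci to -0.98, with 75.0% of members early and a single-gene median of 1.01. The early share moved to 69.7% with each locus counted once, to 68.7% with the cut at the median RT of all bins, to 40.4% with the cut at RT 1 and to 72.7% at RT -1. The share of all protein-coding genes was not recounted in these ways. Their 74.1% holds for the cut at RT 0 and is no like background for these values. The difference of medians moved to 1.39 without symbols ending in a letter, 0.70 with each locus counted once, 1.91 with at least 3 members in a locus and 2.15 where a locus had to hold at least 2 members of the gene's own subfamily. Under that last rule the medians were -0.32 and 1.83. RT averaged over the gene body, over 3 bins or by a running median over 5 bins left all 4 results within the limits. With RefSeq starts, which were matched for 76 of the 99 members, 3 members fell in another bin and none changed its side of 0. Cyp2d9 moved from 2.27 to 1.52. The members without a match kept their start and could not move. The RefSeq entry of Cyp2c39, also among the 76 promoters, started at -164 kb from its GENCODE start. Depth is unknown, so precision rests on the noise between bins alone.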
